A study of Mus musculus with 6 samples.

Results

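The 36 genes described here carry glucose into the cell, break it down to lactate, or belong to the transcriptional response to low oxygen. They were taken by symbol from a list that was chosen with earlier results of these data known. All 36 were found among the 34099 gene identifiers that were counted. The symbol Aldoa had 2 identifiers, with 558941 and 173 UMIs (unique molecular identifiers, each standing for 1 captured RNA molecule), and the first was used. The cells came from liver tumors of male, wild type C57BL/6J mice, obtained at 8 weeks of age. These mice carried H22 cells, a murine hepatocellular carcinoma line grown as ascites and then placed in the liver. The 3 stressed mice were exposed to chronic unpredictable mild stress before the tumor cells were implanted. They received 2 stressors a day for 21 days, with overnight food deprivation among the possible stressors. The 3 control mice received the same tumor cells and no stressors. H22 is a single transplanted line, so the tumor cells of all 6 mice share 1 origin.

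In total, 58794 annotated cells were analysed, 31535 from control and 27259 from stressed mice, with 149558935 to 187728350 UMIs per mouse. UMIs were summed per mouse within each of the authors' cell types, so every test compared 3 mice with 3 mice. The control libraries had been counted with Cell Ranger 9.0.0 and the stress libraries with 7.1.0, so an effect of stress and one of the counting version cannot be told apart here. Tumor cells made up 29638 cells in 10 clusters, and 3 of their 6 markers (Krt18, Cldn6 and Afp) were highest in them, whereas Krt8 and Cdh1 lay at a mean of 5.66 and 0.489 CPM (a gene's share of all UMIs of those cells, scaled to a common total). Of the M-MDSC (monocytic myeloid-derived suppressor cell) markers, Arg1, Nos2 and Ccr2 were highest in monocytes, and the summed tumor markers in M-MDSCs came to 547 to 869 CPM, overlapping the 696 to 974 CPM of tumor cells. The means of Cldn6 and Afp were 135 and 76.6 CPM in M-MDSCs and 137 and 78.2 CPM in tumor cells, so M-MDSC is used below only as the authors' label. Hepatic stellate cells and neutrophils fell below 10 cells in a mouse and were not tested.

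Glucose enters through the transporters Slc2a1 and Slc2a3 and is converted step by step to pyruvate, which Ldha reduces to lactate. When oxygen falls, the prolyl hydroxylases Egln1 and Egln3 no longer mark the HIF factors Hif1a and Epas1 for destruction, and these factors bind DNA at a short core motif, ACGTG or GCGTG. Targets of HIF include most glycolytic enzymes, Pdk1, which inhibits pyruvate dehydrogenase, and genes such as Bnip3, Ankrd37 and Ndrg1. Hif1a is controlled mainly at the protein level, which RNA counts do not measure.

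Of the 19 genes that fell in tumor cells and had a promoter window, 6 held 3 or more copies of the motif upstream of the start site and outside exons. The promoters of 4 of them are shown, chosen by the number of copies and then by the size of the fall, and those of P4ha1 and Pgam1 are not. Aldoa, Aldoc, Gpi1, Hilpda, Hk1, Pkm and Tpi1 also fell and held no copy outside exons. P4ha2, which was not called changed, held 3. The share of all promoters with 3 or more such copies was not counted. Sequences were from the RefSeq promoter set on GRCm38.p6, 5′ to 3′ on the strand of the gene, limited to the part of the 250 upstream bases outside annotated exons. Capitals mark ACGTG or GCGTG on either strand, which appear as CACGT or CACGC where the match lies on the opposite strand. Bnip3 lay at chr7:138909520-138909756 (minus strand), Ero1a at chr14:45318573-45318702 (minus), Ldha at chr7:46845554-46845803 (plus) and Pfkp at chr13:6648778-6649021 (minus).
Bnip3: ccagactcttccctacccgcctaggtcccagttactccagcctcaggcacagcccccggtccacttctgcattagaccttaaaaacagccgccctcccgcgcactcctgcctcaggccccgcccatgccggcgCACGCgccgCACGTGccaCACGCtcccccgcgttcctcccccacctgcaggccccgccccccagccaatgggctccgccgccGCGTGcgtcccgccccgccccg
Ero1a: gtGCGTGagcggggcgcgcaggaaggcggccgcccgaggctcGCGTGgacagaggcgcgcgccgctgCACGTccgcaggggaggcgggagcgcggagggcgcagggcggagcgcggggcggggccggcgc
Ldha: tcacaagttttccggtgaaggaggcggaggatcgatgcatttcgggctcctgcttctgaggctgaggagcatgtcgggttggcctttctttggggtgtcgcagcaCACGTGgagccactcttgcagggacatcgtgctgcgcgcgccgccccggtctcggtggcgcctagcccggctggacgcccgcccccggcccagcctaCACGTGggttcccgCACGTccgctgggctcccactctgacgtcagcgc
Pfkp: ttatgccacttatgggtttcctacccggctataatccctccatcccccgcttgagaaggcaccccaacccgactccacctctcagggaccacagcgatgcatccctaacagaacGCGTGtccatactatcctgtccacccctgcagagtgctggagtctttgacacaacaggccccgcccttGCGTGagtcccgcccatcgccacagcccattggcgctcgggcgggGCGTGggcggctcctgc
The Bnip3 stretch held 4 copies and the other 3 stretches held 3 each. The Ero1a and Ldha stretches lie within the annotated span of their genes, between exons, whereas those of Bnip3 and Pfkp lie upstream of the gene.

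Promoter windows were found for 32 of the 36 genes, all but Slc2a3, Eno1b, Epas1 and Ndrg1. The motif was present in 25 of 32 windows (78.1%), against 38.6% of all 27025 promoter windows of the same length and 43.8% of the 17491 of protein-coding genes. At least 2 copies were present in 17 of 32 windows (53.1%), against 13.5% of all promoters and 16.8% of protein-coding ones. The longer palindrome CACGTG, which contains ACGTG, was present in 3 windows and in 6.05% of all promoters. Among genes that fell in tumor cells of stressed mice, 13 of 19 windows held the motif, and among those not called changed 12 of 13 did. A match describes these letters in this window and is not evidence of binding.

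In tumor cells, glycolytic and hypoxia genes were lower in stressed than in control mice. Of the 36 genes, 21 fell and 0 rose at an adjusted p under 0.05 (edgeR's quasi-likelihood test, Benjamini-Hochberg adjustment over 18856 genes), while 9.46% of all tested genes fell and 12% rose. The median log2 fold change of the 36 genes was -0.52, against -0.01 for all tested genes, and 34 of 36 estimates were below 0. In 26 genes every stressed mouse lay below every control mouse, which was the case for 20.3% of all genes, and in 0 genes did every stressed mouse lie above (21.2% of all genes). Levels in comparisons of stress with control are CPM after scaling by edgeR's TMM factors, and log2 fold changes are stress over control with their standard error. TMM factors were 0.935 to 0.977 in control and 0.991 to 1.093 in stressed mice. With upper-quartile scaling, which moved the median of all genes to 0.15, 15 of the 36 genes fell and 1 (Eno1) rose, and over all genes 3193 rose and 603 fell in place of 2258 and 1783. With scaling by total UMIs alone, 16 of the 36 genes were called changed, as were 17.6% of all genes.

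**Figure D1:**
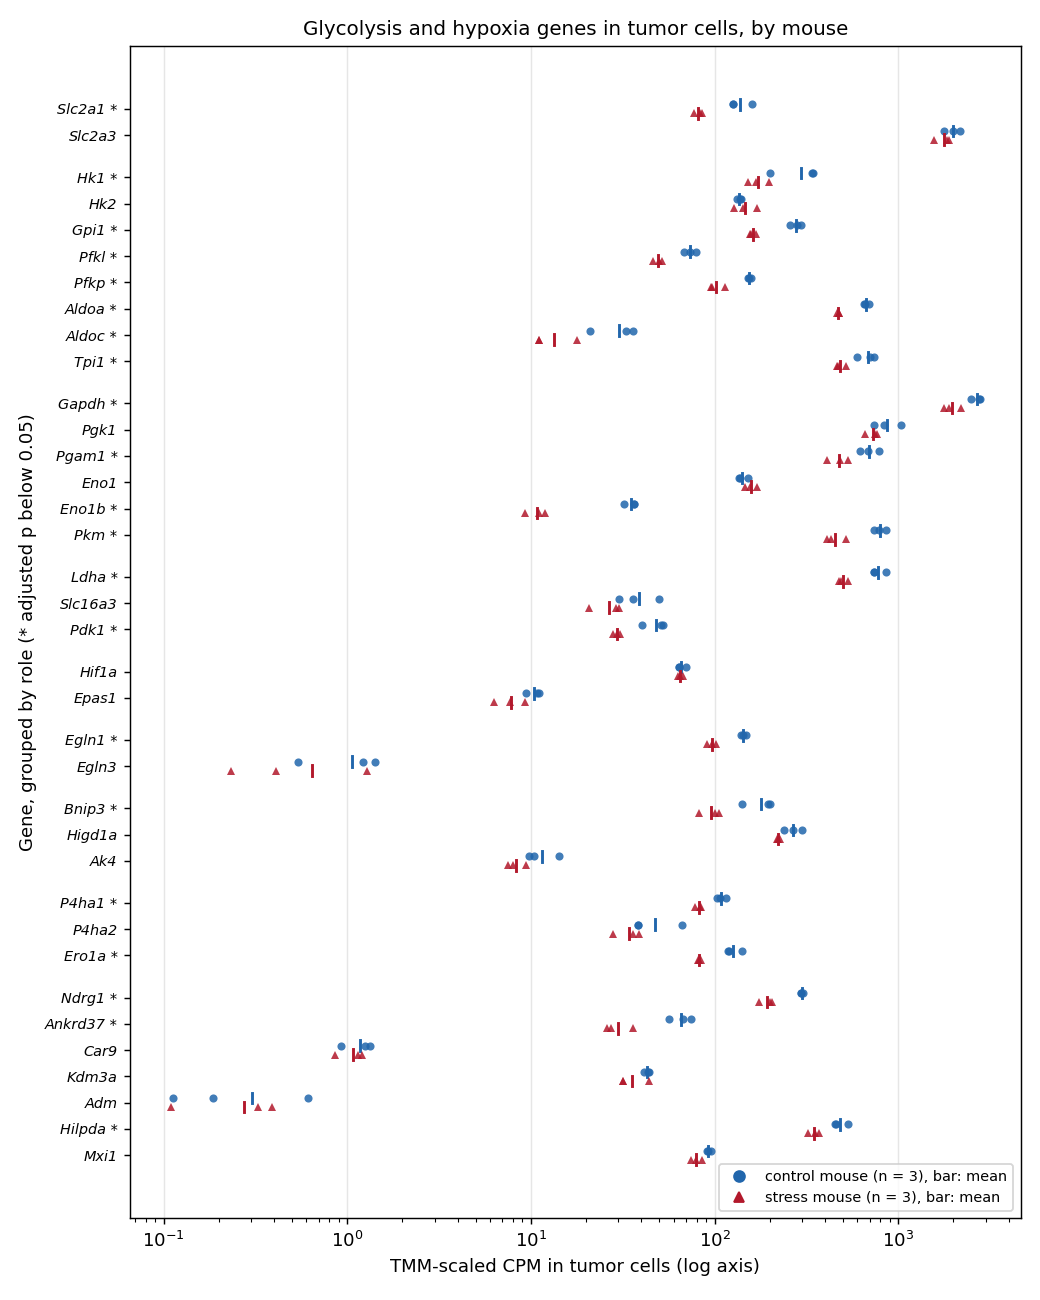
Level of each of the 36 genes in tumor cells of each mouse, in TMM-scaled CPM on a log axis, with control mice as circles, stressed mice as triangles, group means as bars and an asterisk where the adjusted p was under 0.05. The 3 stressed mice lie to the left of the 3 control mice in 26 genes, among them all 21 that passed the test.

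Of the glucose transporters, Slc2a1, the widely expressed basal transporter, fell. It measured 127, 159 and 125 CPM in the 3 control mice and 76.9, 83.2 and 85.3 CPM in the 3 stressed mice (log2 fold change -0.75 ± 0.11, adjusted p = 0.00705 by edgeR). Slc2a3, the high-affinity transporter, measured 1787 to 2163 CPM in control and 1563 to 1898 CPM in stressed mice, and the groups overlapped (-0.16, adjusted p = 0.371). Slc2a1 thus made up 5.48% to 8.19% of the UMIs of the transporter pair in control mice and 3.89% to 5.05% in stressed mice.

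Of the 8 genes of upper glycolysis, which splits glucose into triose phosphates, 7 fell. Gpi1, which isomerizes glucose 6-phosphate, measured 296, 259 and 281 CPM in control and 169, 157 and 158 CPM in stressed mice (-0.79 ± 0.09, adjusted p = 0.00392). Both phosphofructokinase subunits among the 36 genes, which catalyze the committed step, fell. Pfkl measured 68.4, 73.2 and 79.3 CPM against 46.2, 49.7 and 51.5 CPM (-0.58 ± 0.09, adjusted p = 0.00704). Pfkp measured 153, 159 and 154 CPM against 96.8, 115 and 95.6 CPM (-0.60 ± 0.09, adjusted p = 0.00776). In each of the 2 genes the lowest control mouse lay above the highest stressed mouse, and Pfkp made up 65% to 69.8% of the pair's UMIs with the groups overlapping.

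The aldolases cleave fructose 1,6-bisphosphate. Aldoa, the widely expressed form, measured 648, 697 and 658 CPM against 476, 466 and 477 CPM (-0.50 ± 0.08, adjusted p = 0.0085). Aldoc, the brain form, was low and measured 36.2, 21 and 33.1 CPM against 17.9, 11.1 and 11.1 CPM (-1.17 ± 0.25, adjusted p = 0.0195). Control 2 was the lowest of the controls for Aldoc and still exceeded the highest stressed mouse. Tpi1, the triose phosphate isomerase, measured 599, 741 and 703 CPM against 470, 517 and 462 CPM (-0.50 ± 0.11, adjusted p = 0.0196).

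Of the hexokinases, which trap glucose in the cell, Hk1 fell and Hk2 was not called changed. Hk1 measured 345, 202 and 339 CPM in control and 198, 169 and 151 CPM in stressed mice (-0.77 ± 0.21, adjusted p = 0.0370), with control 2 just above the highest stressed mouse. Hk2, the inducible form, measured 138, 140 and 133 CPM against 127, 143 and 170 CPM (0.10, adjusted p = 0.558). The Hk1 call was lost when control 1, control 3 or any of the 3 stressed mice was left out, with Hk1 lower under stress in each case.

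Of the 6 genes of lower glycolysis, which yields ATP and pyruvate, 4 fell. Pkm, the pyruvate kinase, measured 739, 856 and 789 CPM in control and 411, 520 and 431 CPM in stressed mice (-0.81 ± 0.12, adjusted p = 0.00632). Pgam1, the phosphoglycerate mutase, measured 621, 785 and 686 CPM against 482, 536 and 409 CPM (-0.55 ± 0.13, adjusted p = 0.0265). Gapdh, the glyceraldehyde 3-phosphate dehydrogenase, measured 2750, 2488 and 2791 CPM against 2189, 1886 and 1780 CPM (-0.46 ± 0.11, adjusted p = 0.0302). All 3 were separated between the groups, with Gapdh the least changed. Pgk1, the first ATP-yielding enzyme, measured 736 to 1030 CPM against 662 to 770 CPM, overlapped and did not pass (-0.26, adjusted p = 0.217). Of the 50-base windows of their transcripts, 53.9% for Pgk1, 36.2% for Pgam1, 25.8% for Pkm and 24.7% for Gapdh also occurred in transcripts of other genes. Windows shared with another counted gene were 20.5% for Gapdh and 0% for Pgk1, Pgam1 and Pkm. The counts are uncertain to the extent that such reads were shared, and how reads shared with uncounted genes were treated was not tested.

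Of the enolases, Eno1b fell and Eno1 was not called changed. Eno1b measured 36.7, 32 and 36.6 CPM in control and 11.1, 12 and 9.28 CPM in stressed mice (-1.70 ± 0.12, adjusted p = 0.0034), the largest change among the 36 genes. Eno1, the ubiquitous enolase on chr4:150236721-150248879, measured 137, 136 and 152 CPM against 147, 156 and 171 CPM (0.15, adjusted p = 0.255), with the groups overlapping. Eno1b, on chromosome 18, is a near-copy, and 76.4% of its 1826 50-base windows also occur in Eno1 transcripts. Of the 5509 windows of Eno1, 25.3% occur in Eno1b. How reads were split between the 2 genes may depend on the counting, whose version cannot be told apart from stress here, and this was not tested. Added together, the enolase UMIs came to 164, 164 and 176 CPM in control and 157, 183 and 192 CPM in stressed mice before TMM scaling, which overlapped.

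The share of Eno1b among enolase UMIs in tumor cells was 21.1%, 19% and 19.4% in control and 7.01%, 7.16% and 5.16% in stressed mice. The same separation appeared in all 10 cell types, immune and endothelial cells included. In ECs (endothelial cells) the share was 17.4% to 22.2% in control and 4.43% to 7.7% in stressed mice, and in monocytes 18.4% to 22.6% and 4.66% to 6.43%. The lowest number of enolase UMIs behind a share was 5, in neutrophils of 1 mouse, and 19951 in tumor cells.

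**Figure D2:**
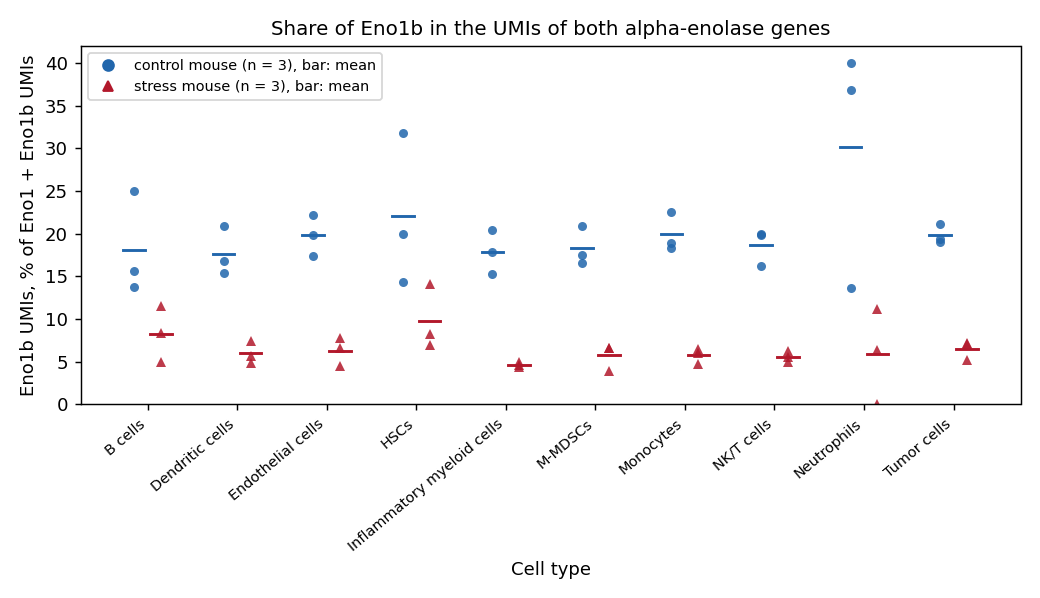
Eno1b UMIs as a percentage of Eno1 plus Eno1b UMIs in each mouse and cell type, with control mice as circles and stressed mice as triangles. In every one of the 10 cell types the 3 control mice lie above the 3 stressed mice, in tumor cells at 19% to 21.1% against 5.16% to 7.16%.

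Of the 3 genes that set the fate of pyruvate and lactate, 2 fell. Ldha, lactate dehydrogenase A, measured 742, 857 and 740 CPM in control and 486, 533 and 475 CPM in stressed mice (-0.65 ± 0.10, adjusted p = 0.00743). Pdk1, which inhibits pyruvate dehydrogenase, measured 52.4, 40.3 and 51.4 CPM against 29.6, 28.1 and 30.4 CPM (-0.71 ± 0.11, adjusted p = 0.0082). Slc16a3, the lactate exporter MCT4, measured 30.4, 50.1 and 36.1 CPM against 20.6, 30.2 and 29 CPM, without overlap but above the threshold (-0.54 ± 0.21, adjusted p = 0.102). The Ldha stretch printed above carried 2 CACGTG palindromes and 3 copies of the motif in all.

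Neither HIF factor was called changed. Hif1a measured 64.4, 69.6 and 63.7 CPM in control and 63.4, 67.2 and 65.1 CPM in stressed mice (-0.02, adjusted p = 0.904). Epas1, which encodes HIF-2α, measured 10.8, 9.4 and 11.1 CPM against 7.69, 6.34 and 9.26 CPM (-0.42 ± 0.16, adjusted p = 0.0888). Hif1a thus lay within a narrow range in all 6 mice, and Epas1 was low with all stressed mice below all controls, although its estimate was 0.28 with cells thinned to 1000 UMIs. Of the oxygen sensors, which are themselves HIF targets, Egln1 measured 140, 149 and 142 CPM against 96.3, 102 and 91.4 CPM and fell (-0.57 ± 0.08, adjusted p = 0.00567). Egln3 was near 1 CPM, from 0.54 to 1.42 in control and from 0.233 to 1.29 in stressed mice, and did not pass (adjusted p = 0.435).

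Among the 3 genes of mitochondria and energy balance, Bnip3, a receptor for mitophagy, fell. It measured 196, 141 and 201 CPM in control and 105, 82.3 and 101 CPM in stressed mice (-0.90 ± 0.16, adjusted p = 0.0106). Higd1a, a mitochondrial survival factor, measured 240 to 299 CPM against 219 to 227 CPM (-0.27 ± 0.10, adjusted p = 0.0890). Ak4, a mitochondrial adenylate kinase, measured 9.83 to 14.2 CPM against 7.53 to 9.47 CPM (-0.47 ± 0.17, adjusted p = 0.0853). The groups did not overlap in either gene, although neither passed.

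Of the 3 genes that fold and modify secreted proteins, 2 fell. P4ha1, a collagen prolyl hydroxylase subunit, measured 108, 116 and 103 CPM in control and 78.1, 83.7 and 84 CPM in stressed mice (-0.41 ± 0.08, adjusted p = 0.0151). Ero1a, the oxidase that drives disulfide formation, measured 118, 142 and 120 CPM against 84, 82.6 and 81.2 CPM (-0.62 ± 0.09, adjusted p = 0.00715). The stressed mice were closely spaced in both. P4ha2 measured 38.3 to 66.4 CPM against 27.9 to 38.7 CPM and overlapped (-0.48 ± 0.23, adjusted p = 0.176).

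Of the 7 other hypoxia targets, 3 fell. Ankrd37, an ankyrin repeat protein and direct HIF target, measured 74.9, 56.3 and 67 CPM in control and 36.1, 26 and 27.2 CPM in stressed mice (-1.15 ± 0.16, adjusted p = 0.00565). Ndrg1, a stress-responsive gene, measured 297, 302 and 296 CPM against 174, 205 and 201 CPM (-0.63 ± 0.09, adjusted p = 0.00621). Hilpda, which protects lipid droplets from lipolysis, measured 451, 459 and 532 CPM against 352, 369 and 323 CPM (-0.47 ± 0.10, adjusted p = 0.0199). The 3 genes were separated, Ankrd37 by the widest ratio. Of the remaining 4, Mxi1, a MYC antagonist, was separated at 90.5 to 95.4 CPM against 74.1 to 85.5 CPM (-0.22, adjusted p = 0.0982). The histone demethylase Kdm3a measured 41.2 to 43.9 CPM against 31.7 to 43.9 CPM and overlapped through stress 3 (-0.26, adjusted p = 0.199). Car9, carbonic anhydrase 9, lay at 0.93 to 1.33 CPM and 0.862 to 1.21 CPM, and Adm, adrenomedullin, at 0.112 to 0.613 CPM and 0.109 to 0.388 CPM. Both were low and overlapped, with log2 fold changes of -0.13 ± 0.22 for Car9 (adjusted p = 0.710) and -0.15 ± 0.68 for Adm (adjusted p = 0.894).

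Other measures of the tumor cells separated the groups too. Mitochondrial UMIs were 3.71% to 4.7% in control and 5.41% to 5.72% in stressed mice, and there were 4962 to 7383 tumor cells per control mouse and 3349 to 4338 per stressed mouse. The summed tumor markers came to 696 to 742 and 783 to 974 CPM, and the summed EC markers to 21.6 to 27 and 28.7 to 40.3 CPM. With equal numbers of cells per mouse, 21 genes fell, as in all cells (18.9% of all genes were called). The part of the mitochondrial and marker differences in the result was not tested. Without cluster 6 the count was 21 (20.5% of all genes), without cluster 17 it was 21 (21.2%), and with each cluster weighted equally it was 18 (17.3%). The 36 genes summed to 11449 to 12190 CPM in control and 9301 to 9980 CPM in stressed mice before TMM scaling.

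Calls held to different degrees when mice were left out. When each of the 6 mice was left out in turn, 15 to 22 genes fell, while 6.14% (without control 3) to 29.9% (without control 2) of all tested genes were called, and 15 of the 21 fell in all 6 of these analyses. Those not always called were Hk1, Aldoc, Gapdh, Hilpda, Pgam1 and Tpi1. Aldoc and Gapdh were lost without control 1, control 3, stress 2 or stress 3. Tpi1 and Pgam1 were lost without control 3, stress 1 or stress 3, and Hilpda without control 3, stress 2 or stress 3. With cells thinned to 1000 UMIs each, which left 33 of the genes tested, 12 fell (3.94% of all genes were called). Aldoa, Ankrd37, Bnip3, Egln1, Ero1a, Gpi1, Ldha, Ndrg1, Pfkl, Pkm and Slc2a1 were called in all 18 alternatives.

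A further 60 genes of glycolysis, pyruvate metabolism and the HIF response, also chosen with earlier results known, were compared in the same way. Of the 54 tested, 14 fell and 2 rose, against 9.46% and 12% of all tested genes, with a median log2 fold change of -0.24. Eno2, the neuronal enolase, measured 14.3, 13.5 and 13.8 CPM in control and 7, 6.76 and 6.38 CPM in stressed mice (-1.05 ± 0.10, adjusted p = 0.0036). Ddit4, an inhibitor of mTORC1, measured 32.5, 16.2 and 25.2 CPM against 12, 12 and 11.8 CPM (-1.05 ± 0.22, adjusted p = 0.0189). Thus Eno2 was closely spaced within each group, and Ddit4 varied among controls. Loxl2, a lysyl oxidase, rose from 2.39, 4.11 and 2.2 CPM to 4.4, 9.56 and 10.2 CPM (1.47 ± 0.36, adjusted p = 0.0282), and the call was lost without control 1, control 3, stress 2 or stress 3. Pfkfb3, which makes the activator of phosphofructokinase, rose from 2.52, 2.39 and 2.58 CPM to 3.75, 3.06 and 3.89 CPM (0.51 ± 0.15, adjusted p = 0.0470), a call lost when any mouse was left out. Pgm1 (-0.74), Kdm4b (-0.62), Insig2 (-0.54), Pgam2 (-0.51), Pfkm (-0.49) and Zfp395 (-0.49) also fell. The genes of this list outside the 54 were too low to be tested.

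The same comparison was made within each of the 10 tumor clusters, whose mice and controls are those of the whole tumor population. Cluster 1 had 18 of 36 genes lower (7.41% of all tested genes fell there), cluster 4 had 18 of 35 (6.84%) and cluster 14 had 19 of 34 (3.34%). Clusters 3, 7 and 9 had 9 of 35 (1.55%), 8 of 34 (1.7%) and 9 of 34 (1.94%). Cluster 5 had 3 of 35 (0.927%), cluster 6 had 4 of 34 (0.614%), cluster 17 had 1 of 31 (0.356%) and cluster 21 had 1 of 30 (0.456%). In none of the 10 clusters was a member called higher, and median log2 fold changes ran from -0.52 in cluster 14 to -0.24 in cluster 17. These counts moved with single mice, from 3 to 19 in cluster 14 (1.66% to 12.2% of all genes) and from 0 to 19 in cluster 6, where leaving out control 2 gave 19 and 12.3% of all tested genes were then called.

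Fold changes of single genes varied between clusters. Eno1b ranged from -1.99 to -1.47 over the 9 clusters in which it was tested. Ankrd37 ranged from -1.39 to -0.43 and Aldoc from -1.43 to -1.01. In cluster 1 the 6 largest called changes were in Eno1b (-1.66), Aldoc (-1.20), Ankrd37 (-0.98), Bnip3 (-0.90), Pkm (-0.77) and Slc2a1 (-0.72). In cluster 4 they were in Eno1b (-1.59), Aldoc (-1.34), Pdk1 (-0.94), Bnip3 (-0.94), Ankrd37 (-0.90) and Hk1 (-0.78). Both clusters thus had the aldolase Aldoc and the mitophagy receptor Bnip3 among their largest called changes. In cluster 14 they were in Eno1b (-1.64), Aldoc (-1.24), Gpi1 (-0.85), Bnip3 (-0.82), Ankrd37 (-0.81) and Pkm (-0.79). Cluster 14 made up 7.3% to 7.49% of tumor cells in control and 3.75% to 4.03% in stressed mice. Its Gpi1 level was 285, 243 and 244 CPM in control and 147, 129 and 152 CPM in stressed mice, with no overlap.

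In cluster 3 the leading genes were Eno1b (-1.47), Ankrd37 (-1.18), Slc2a1 (-0.72), Bnip3 (-0.71), Pkm (-0.67) and Ndrg1 (-0.65). In cluster 7 they were Eno1b (-1.61), Ankrd37 (-1.11), Bnip3 (-0.76), Pkm (-0.73), Gpi1 (-0.68) and Slc2a1 (-0.66), and in cluster 9 Eno1b (-1.49), Aldoc (-1.01), Ankrd37 (-0.88), Pkm (-0.66), Bnip3 (-0.63) and Gpi1 (-0.60). The summed EC markers in cluster 9 were 25.3 to 30.4 CPM in control and 67.1 to 87.2 CPM in stressed mice, and their part in its result was not tested. In cluster 5 the genes called were Eno1b (-1.57), Ankrd37 (-1.05) and Gpi1 (-0.70), and in cluster 6 Eno1b (-1.68), Gpi1 (-0.86), Pkm (-0.77) and Slc2a1 (-0.66). Cluster 17 had Pgam1 alone, at 448, 514 and 536 CPM in control and 237, 352 and 256 CPM in stressed mice (-0.82, adjusted p = 0.0456 by edgeR). Cluster 21 had Eno1b alone (-1.99, adjusted p = 0.00124).

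**Figure D3:**
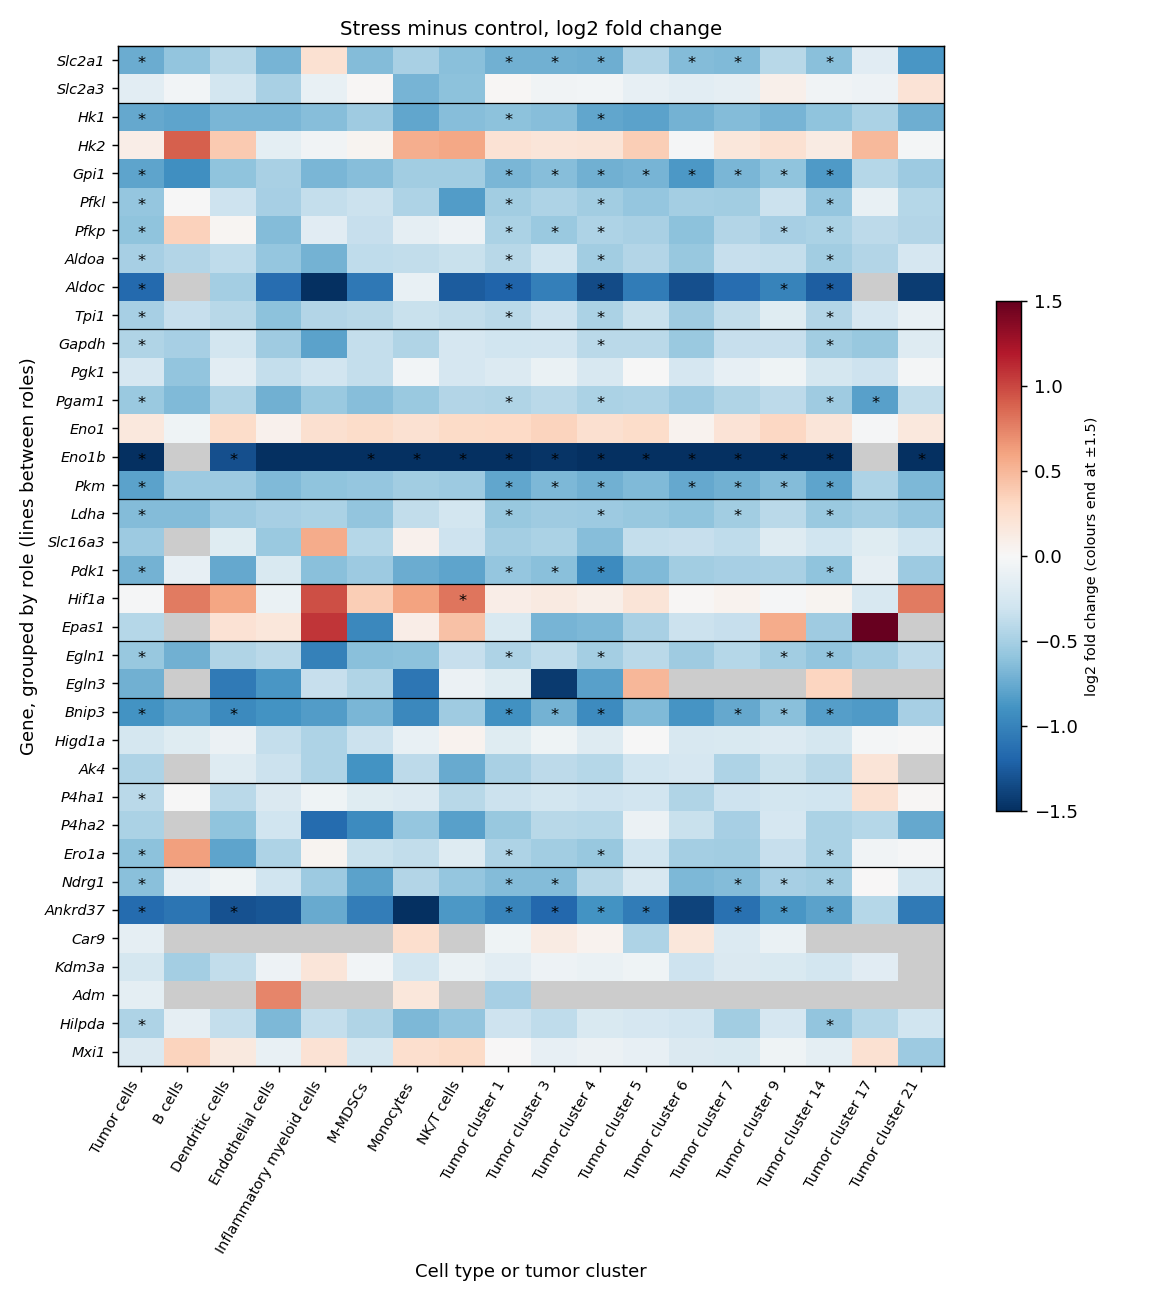
Log2 fold change (stress over control) of the 36 genes in tumor cells, in 7 other cell types and in the 10 tumor clusters, with colours ending at -1.5 and 1.5, grey where a gene was not tested and an asterisk where the adjusted p was under 0.05. Most asterisks lie in tumor cells (21) and in clusters 1, 4 and 14 (18, 18 and 19), and the single asterisk for a rise is Hif1a in NK/T cells.

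In the other cell types few of the genes passed the test. The median log2 fold change of the genes ran from -0.49 in ECs to -0.35 in B cells, against -0.52 in tumor cells, and whether these medians differ was not tested. Numbers of cells were smaller, with 457 B cells, 1556 DCs (dendritic cells), 11433 ECs, 6307 inflammatory myeloid cells, 350 M-MDSCs, 6260 monocytes and 2490 NK/T cells in all 6 mice, against 29638 tumor cells. All these comparisons share the 6 mice of the tumor comparison. RNA of tumor markers was also found in them, at 60.4 to 550 CPM in sum in 6 of the types and at 547 to 869 CPM in M-MDSCs.

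In ECs, 0 of 35 genes passed the edgeR test (0.213% of all genes were called), 23 were below an unadjusted p of 0.05 (15.6% of all genes) and 14 were called by DESeq2 (3.02%). The median log2 fold change was -0.49 against -0.01 for all genes, and in 22 genes the groups did not overlap with stress below, compared with 12.1% of all genes. Gpi1 measured 174, 160 and 167 CPM in control and 120, 117 and 120 CPM in stressed mice (-0.49 ± 0.09, adjusted p = 0.0941). Bnip3 measured 90.7, 62.9 and 84.4 CPM against 47.3, 37.1 and 43.7 CPM (-0.89 ± 0.16, adjusted p = 0.099). Both were thus separated without passing. Epas1, the HIF factor typical of endothelium, measured 223, 218 and 225 CPM against 242, 229 and 280 CPM (0.17 ± 0.11, adjusted p = 0.48). Mitochondrial UMIs in ECs were 2.76% to 3.2% against 3.23% to 4.21%, and the summed EC markers 5296 to 6756 against 7119 to 7473 CPM. The shallow cluster 15 held 1.73% to 5.35% of ECs in control and 11.3% to 23.1% in stressed mice, and cluster 8 held 28.4% to 30.2% and 18% to 25.3%. Without cluster 15, 0 of the genes passed and 23 were below an unadjusted p of 0.05, as with it, and the part of the other differences was not tested.

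In DCs, 3 of 34 genes fell (0.513% of all genes did) and 0 rose. Ankrd37 measured 77, 48.2 and 63.1 CPM in control and 22.5, 23.1 and 26.9 CPM in stressed mice (-1.31, adjusted p = 0.00861). Bnip3 measured 178, 123 and 191 CPM against 83.7, 64.9 and 103 CPM (-0.96, adjusted p = 0.0379). Eno1b measured 35, 21 and 30.8 CPM against 7.2, 11.9 and 11.7 CPM (-1.32, adjusted p = 0.0269). None of the 3 overlapped, and 18 of the 34 genes had all stressed mice below all controls, compared with 10.5% of all genes. Bnip3 and Eno1b were lost without control 1, control 3 or any stressed mouse. The class was made up differently in the groups: cluster 19 held 59.5% to 74.7% of DCs in control and 36.7% to 49.6% in stressed mice, and cluster 20 held the rest. Summed DC markers were 1888 to 2474 CPM in control and 3469 to 3744 in stressed mice, and summed inflammatory myeloid markers 451 to 1114 and 1693 to 2146 CPM. Summed tumor markers in DCs were 454 to 550 CPM in control and 337 to 470 CPM in stressed mice, which overlapped. The part of these differences and of the tumor RNA was not tested.

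In NK/T cells, 1 of 34 genes fell (0.322% of all genes) and 1 rose (0.536%). Below an unadjusted p of 0.05 by edgeR were 19 of the 34 (13.1% of all genes). In 14 genes every stressed mouse lay below every control (9.95% of all genes), and in 1 every stressed mouse lay above (10.2%). Hif1a rose from 226, 286 and 281 CPM in control to 490, 390 and 514 CPM in stressed mice (0.80 ± 0.16, adjusted p = 0.0399), so that the lowest stressed mouse exceeded the highest control. The call was lost when any mouse except stress 2 was left out, with estimates of 0.71 to 0.91. Eno1b measured 28.1, 24.6 and 33.9 CPM against 7.31, 10.3 and 9.4 CPM (-1.60, adjusted p = 0.0127), a call lost without control 3. In NK/T cells summed DC markers were 32.4 to 43 CPM in control and 111 to 178 in stressed mice, and UMIs per cell 5263 to 6853 and 7250 to 8612. Their part in the Hif1a result was not tested.

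In M-MDSCs and in monocytes, Eno1b was the single gene that passed. In M-MDSCs it measured 36.7, 28.1 and 31.2 CPM in control and 9.31, 12.5 and 8.4 CPM in stressed mice (-1.60, adjusted p = 0.0268, 1 of 34 genes, 0.254% of all genes lower). In monocytes it measured 53.8, 37.8 and 62.9 CPM against 14.6, 12.9 and 15.4 CPM (-1.84, adjusted p = 0.0340, 1 of 36, 0.0163% of all genes lower). Both were separated, and both calls were lost without control 1, control 3 or any stressed mouse. With the replicate number as a block, 4 genes were called in monocytes, Eno1b, Ankrd37, Bnip3 and Slc2a3, named after their values were seen. The block called 1.67% of all genes there. Mitochondrial UMIs were 2.15% to 2.37% in control and 2.67% to 3.38% in stressed mice in monocytes and 3.7% to 4.28% and 5.05% to 6.18% in M-MDSCs. Summed inflammatory myeloid markers in monocytes were 2335 to 4353 and 5155 to 8291 CPM, and the part of these differences was not tested. Hif1a in monocytes measured 308, 603 and 363 CPM in control and 391, 713 and 839 CPM in stressed mice, overlapped and did not pass (0.61 ± 0.34, adjusted p = 0.512).

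B cells and inflammatory myeloid cells had no gene past the threshold. In B cells 0 of 27 genes passed (0.483% of all genes were called), 11 were below an unadjusted p of 0.05 (11.1% of all genes), DESeq2 called 0 of the 27 and the median was -0.35. In inflammatory myeloid cells edgeR called 0 of 34 genes and 0% of all genes, with 3 of the 34 below an unadjusted p of 0.05 (3.96% of all genes), 0 called by DESeq2 and a median of -0.45. Mice varied widely there: Hilpda measured 1897, 2590 and 6053 CPM in control and 3190, 926 and 4097 CPM in stressed mice. Hif1a measured 118, 258 and 196 CPM against 200, 305 and 613 CPM (0.97 ± 0.52, adjusted p = 0.994). Neither gene separated the groups, and differences below this spread were not detectable.

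Whether the stress change of a gene differed between tumor cells and another cell type was tested as an interaction. Against ECs 0 of 36 genes differed (0.13% of all genes did), against monocytes 0 (0.0634%) and against inflammatory myeloid cells 0 (0.0821%). By an unadjusted p of 0.05, 4, 2 and 2 genes did (12.2%, 7.58% and 4.31% of all genes). Against NK/T cells 1 gene differed (0.742% of all genes), namely Hif1a, whose log2 fold change in tumor cells minus that in NK/T cells was -0.84 ± 0.16 (adjusted p = 0.0226 by edgeR). This call was lost with RLE scaling (-0.69) and without control 1, control 3 or stress 1. By an unadjusted p of 0.05, 11 genes differed from NK/T cells (10.7% of all genes did), 10 of them with the change in tumor cells the lower. This number was 4 with RLE scaling (8.3% of all genes), 7 without the filter on low counts (7.06%) and 5 to 11 when a mouse was left out. After Hif1a the smallest p belonged to Epas1, at -0.88 ± 0.24 (unadjusted p = 0.002, adjusted p = 0.114 by edgeR). Of the glycolytic genes, the difference was -0.55 ± 0.16 for Pfkp (adjusted p = 0.152), -0.50 ± 0.19 for Hk2 (0.333), -0.39 ± 0.12 for Ldha (0.189), -0.30 ± 0.12 for Pkm (0.350) and -0.25 ± 0.10 for Gapdh (0.329). Slc2a3 alone went the other way, at 0.43 ± 0.15 (unadjusted p = 0.00933, adjusted p = 0.248 by edgeR). Apart from Hif1a these genes were named after their values were seen, and none of them passed the adjusted threshold.

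Levels were next compared across cell types, as CPM without TMM scaling, mean ± SD over 6 mice. Control and stressed mice were pooled for this description, and no test was made. Of 8 cell types with enough cells, inflammatory myeloid cells were highest for 15 genes, monocytes for 12, tumor cells for 5, ECs for 3 and M-MDSCs for 1. The highest cell type was the same in all 6 mice for 10 genes, and 32 of 36 kept theirs after thinning to 1000 UMIs per cell.

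**Figure D4:**
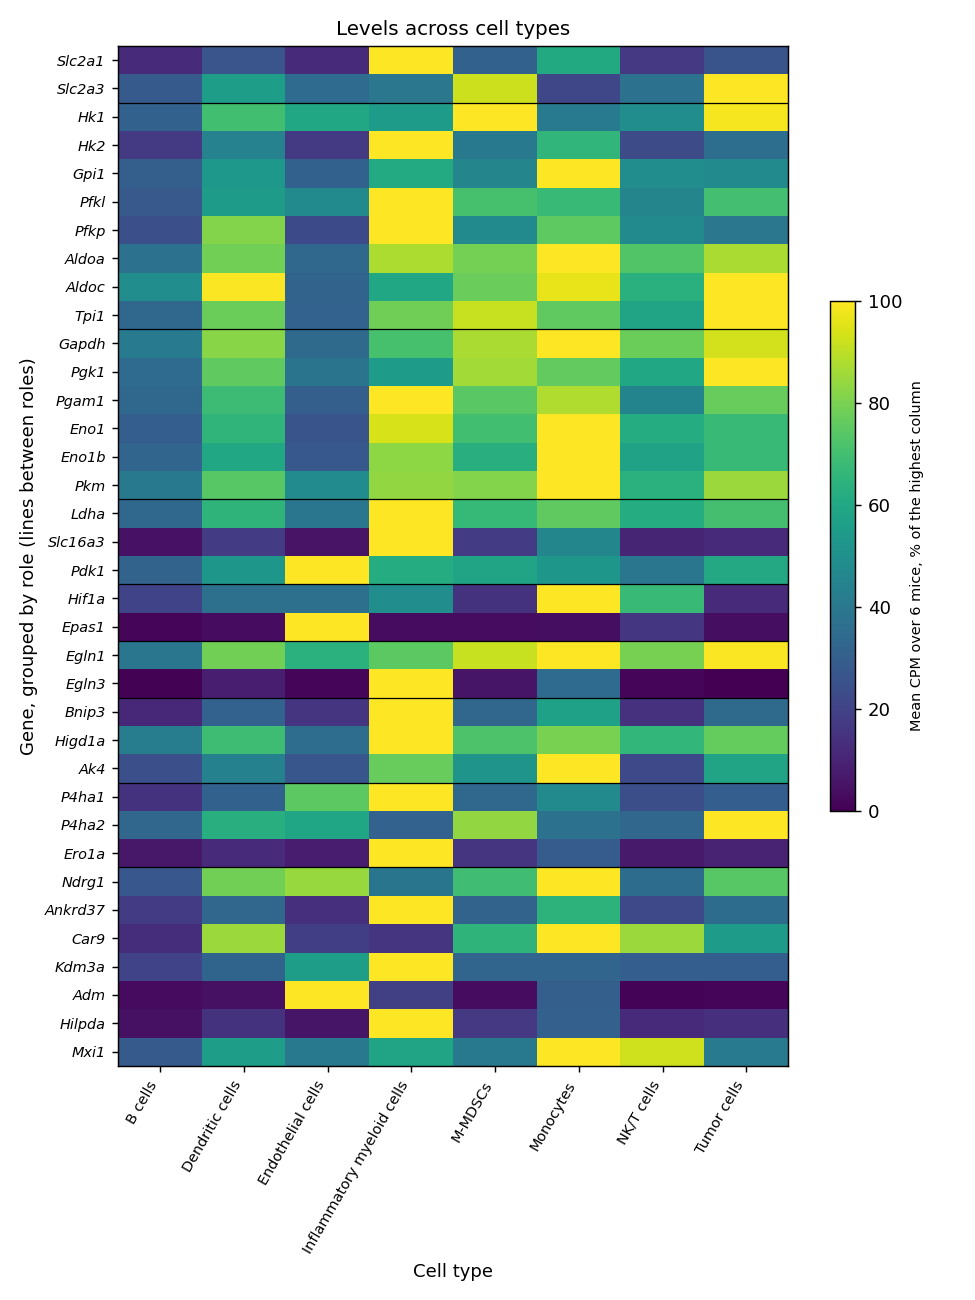
Mean level over 6 mice of each of the 36 genes in 8 cell types, in CPM and drawn as a percentage of the cell type where the gene is highest. Inflammatory myeloid cells and monocytes reach 100% for 15 and 12 genes, whereas Epas1, Adm and Pdk1 reach it in ECs.

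Several hypoxia targets were highest in inflammatory myeloid cells. Hilpda measured 2975 ± 1543 in inflammatory myeloid cells and 916 ± 449 in monocytes, the next highest, and 134 ± 60.2 in B cells, the lowest. Ero1a measured 1055 ± 443 in inflammatory myeloid cells, 308 ± 105 in monocytes and 66.3 ± 20.7 in B cells. Egln3 measured 397 ± 158 in inflammatory myeloid cells, 139 ± 89.4 in monocytes and 0.847 ± 0.505 in tumor cells. In these 3 genes inflammatory myeloid cells exceeded every other type with enough cells in all 6 mice. The same was true of Slc16a3 (276 ± 82.3, then 127 ± 28.6 in monocytes), Hk2 (394 ± 139, then 259 ± 72.8) and Bnip3 (393 ± 257, then 225 ± 125). Hepatic stellate cells and neutrophils were left out of this order. After thinning, Slc16a3 was found in 23.5% to 52.9% of neutrophils, as few as 4 in a mouse, and 20.6% to 30.8% of inflammatory myeloid cells. Among paralogues, Egln3 made up 64.3% to 91.5% of the UMIs of Egln1 and Egln3 in inflammatory myeloid cells and 0.242% to 1.39% in tumor cells.

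Glucose transporters divided between cell types. Slc2a3 measured 1870 ± 125 in tumor cells and 1730 ± 215 in M-MDSCs, the class with tumor markers at the level of tumor cells, and was higher in tumor cells in 5 of 6 mice. It was lowest in monocytes at 396 ± 158. Slc2a1 measured 415 ± 117 in inflammatory myeloid cells, 253 ± 80.6 in monocytes and 49.7 ± 13.2 in ECs. Some glycolytic enzymes had no clear highest type. Gapdh measured 2465 ± 713 in monocytes and 2295 ± 293 in tumor cells (higher in 4 of 6 mice), and Aldoa 650 ± 149 in monocytes and 569 ± 218 in inflammatory myeloid cells (higher in 5 of 6). Gpi1 measured 457 ± 132 in monocytes and 280 ± 112 in inflammatory myeloid cells, higher in 6 of 6 mice. Ldha measured 898 ± 306 in inflammatory myeloid cells and 298 ± 117 in B cells.

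The 2 HIF factors had different patterns. Hif1a measured 531 ± 202 in monocytes and 359 ± 106 in NK/T cells and was lowest in tumor cells at 65.7 ± 5.48. Epas1 measured 236 ± 24.4 in ECs, 37.3 ± 8.25 in NK/T cells and 3.28 ± 4.07 in B cells, with ECs highest in 6 of 6 mice. ECs were also highest for Adm, a vasodilator peptide, at 23.2 ± 8.75 against 7.03 ± 5.64 in monocytes, and for Pdk1 at 63.5 ± 8.56 against 39.4 ± 18.6 in inflammatory myeloid cells. Low genes gave no stable order: Aldoc measured 21.2 ± 9.41 in tumor cells and 21.1 ± 7.7 in DCs, and Car9 2.02 ± 0.33 in monocytes and 1.72 ± 2.45 in NK/T cells.

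Within the tumor, the genes were again uneven between clusters, which had been defined from the same cells, so their levels are given without a test. Cluster 17 was highest for 11 genes, cluster 6 for 9, cluster 21 for 7, cluster 1 for 3, clusters 9 and 14 for 2 each and clusters 5 and 7 for 1 each. After thinning, 28 of 36 kept their highest cluster, and in 2 genes, Gapdh and Hilpda, 1 cluster was highest in all 6 mice. Cluster 21 was the lowest cluster for 23 genes and the highest for 7.

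**Figure D5:**
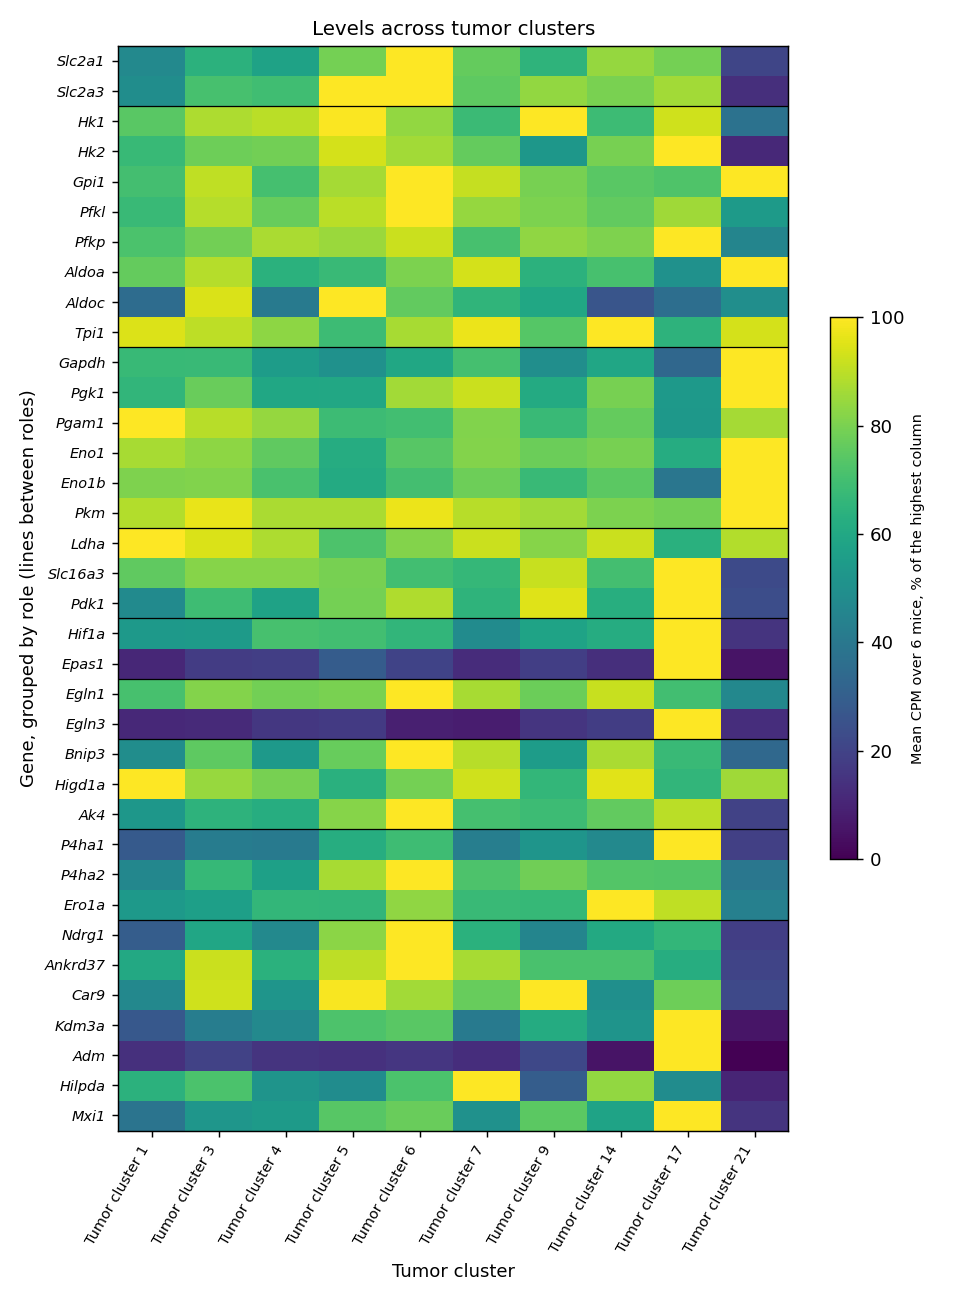
Mean level over 6 mice of each of the 36 genes in the 10 tumor clusters, in CPM and drawn as a percentage of the cluster where the gene is highest. Cluster 21 is the lowest column for 23 genes but the highest for Gapdh and Pgk1, and cluster 17 is the highest for 11 genes.

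Of the 6 genes of lower glycolysis, 5 had their highest mean in cluster 21, all but Pgam1. Pkm was highest there in 2 of 6 mice (690 ± 220, against 669 ± 172 in cluster 6), and Eno1b was highest in cluster 1 after thinning. Gapdh measured 3720 ± 554 there and 2628 ± 311 in cluster 7, the next, and Pgk1 measured 1111 ± 176 and 1022 ± 111. Slc2a3 measured 341 ± 89.2 in cluster 21 against 2551 ± 188 in cluster 6. Kdm3a measured 4.69 ± 1.35 in cluster 21 against 81.9 ± 15 in cluster 17, and Hif1a 16.4 ± 7.24 against 110 ± 24.6. In each of these 3 genes cluster 21 was at a small fraction of the highest cluster. Aldoa at 738 ± 117 and Eno1 at 191 ± 14.5 instead had their highest mean in it. Aldoa exceeded cluster 7, the next at 691 ± 71.3, in 3 of 6 mice, and Eno1 exceeded cluster 1, its next, in 5 of 6. Hilpda measured 637 ± 120 in cluster 7, 535 ± 109 in cluster 14 and 66.3 ± 24.6 in cluster 21.

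In cluster 17 Gapdh was lowest of all clusters at 1250 ± 296, and P4ha1 was highest at 211 ± 69.7, followed by 145 ± 22.5 in cluster 6. Its cells were shallow, with a median of 1369 to 2877 UMIs per cell in the 6 mice, and its summed EC markers came to 123 to 393 CPM, above the 8.27 to 87.2 CPM in the other 9 clusters. Epas1 in cluster 17 measured 24.9, 32 and 14.2 CPM in control and 161, 36.6 and 57.4 CPM in stressed mice. The part of the EC markers in that level was not tested. Cluster 6 was highest for Slc2a1 (162 ± 36), Egln1 (147 ± 26.4), Bnip3 (195 ± 71) and Ndrg1 (431 ± 108), and exceeded the cluster with the next highest mean in 6, 5, 5 and 4 of the 6 mice.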

How the data were processed

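The data were 10x 3′ single-cell libraries, 1 per mouse, mapped to mm10 with Cell Ranger 9.0.0 (control) or 7.1.0 (stress). The UMI counts were deposited by the authors without normalization, together with their Seurat clusters and cell types. Their methods name doublet removal with Scrublet, and no doublet caller was run here. In each mouse every deposited barcode within the stated limits on genes, UMIs and mitochondrial UMIs was annotated. No removal of doublets between these barcodes and the annotation is therefore seen. The gene annotation used for counting is not given in the sources used here.

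Counts were summed per mouse over each cell type and each tumor cluster with at least 10 cells in every mouse. Genes were kept by edgeR's filterByExpr, scaled by TMM and compared with the quasi-likelihood test of edgeR 4.0.16 in R 4.3.3, with Benjamini-Hochberg adjustment over all tested genes and a threshold of 0.05. The interaction tests fitted tumor cells and 1 other cell type together. DESeq2 1.42.0, limma 3.58.1, other scalings, filters, thinned cells and left-out mice were alternatives. The tests had been tried on simulated counts. Levels across cell types were CPM of the summed UMIs without TMM scaling. Because 3′ counts depend on each gene's capture, shares of a pair of paralogues are shares of UMIs and compare mice or cell types, not the amounts of the 2 RNAs.

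Named were all 36 genes in tumor cells, up to 6 called genes by size elsewhere, and the 10 largest called changes of the 60 further genes. Genes named elsewhere without a call (in ECs, monocytes, inflammatory myeloid cells, cluster 17 and the interactions) were chosen after their values were seen. The genes and lists were chosen with earlier results of these data known. Each library is 1 mouse, at 149558935 to 187728350 UMIs, and 40 or fewer cell barcodes (0.424% of the smaller library) were shared by any pair. Promoter windows were taken from RefSeq (GRCm38.p6), and exons and 50-base windows from GENCODE M21. Error terms after ± are standard errors for fold changes and SDs for levels.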

Additional observations from a re-analysis of the deposited data

Results flagged for a closer look

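Hif1a had a different stress change in tumor cells and NK/T cells by the interaction test, with a difference in log2 fold change of -0.84 (0.80 in NK/T cells, -0.02 in tumor cells). The call was lost with RLE scaling and without control 1, control 3 or stress 1, and that of Hif1a within NK/T cells without any mouse except stress 2.

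Epas1 moved in opposite directions, with every stressed mouse on the same side, in ECs (0.17) and inflammatory myeloid cells (1.07) on one hand and in M-MDSCs (-0.97) and tumor cells (-0.42) on the other. Of all genes, 10.8% and 3.12% had every stressed mouse above in the first 2, and 7.78% and 20.3% below in the others. Epas1 and Hif1a together had as few as 30 UMIs in a mouse in M-MDSCs and 196 in inflammatory myeloid cells. Epas1 made up at most 16.8% and 4.08% of the pair's UMIs there. The interaction between tumor cells and ECs was -0.52 (adjusted p = 0.191 by edgeR) and that between tumor and inflammatory myeloid cells -1.46 (adjusted p = 0.837), and the differences involving M-MDSCs were not tested. None of these single changes passed the threshold, and the change in tumor cells was 0.28 with cells thinned to 1000 UMIs.

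Within the tumor, Epas1 was lower in every stressed mouse in clusters 3 (-0.70), 4 (-0.68) and 14 (-0.53) and higher in every stressed mouse in cluster 17 (1.65). The summed EC markers in cluster 17 were 123 to 393 CPM, against 8.27 to 87.2 CPM in the other 9 clusters, and Epas1 was highest in ECs at 236 CPM. The part of these markers and the difference between clusters were not tested.

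Ero1a was higher in every stressed mouse in B cells (0.61) and lower in every stressed mouse in DCs (-0.80), ECs (-0.47) and tumor cells (-0.62), and only the change in tumor cells passed the threshold. In B cells the lowest stressed mouse lay at 67.3 CPM and the highest control at 67.1 CPM, and 9.3% of all genes there had every stressed mouse above every control. The difference between tumor cells and ECs was -0.06 (adjusted p = 0.864), and those involving B cells were not tested.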

How the results depend on the processing

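The labels give no pairing of mice by replicate number, and the main tests used none. Deviations from the group means were correlated between control and stressed mice. In tumor cells the same-numbered mice had correlations of 0.496, 0.39 and -0.129, and mice of different numbers -0.564 to 0.33. In each of the other tested cell types all 3 same-numbered pairs were above 0, the lowest at 0.00212 in B cells. They were 0.571, 0.434 and 0.0162 in ECs, 0.665, 0.0965 and 0.482 in inflammatory myeloid cells and 0.476, 0.422 and 0.146 in monocytes. Mice of different numbers had correlations from -0.745 to 0.518 in these types, both extremes in inflammatory myeloid cells. Whether the numbers mark a shared batch was not tested. With the replicate number as a block, the count of genes called, with the share of all tested genes called in the same analysis, was 23 in tumor cells (27%), 10 in DCs (6.28%), 4 in ECs (0.93%), 3 in M-MDSCs (1.31%), 4 in monocytes (1.67%), 5 in NK/T cells (2.05%), 18 in cluster 3 (9.5%), 9 in cluster 5 (5.45%), 14 in cluster 9 (15%) and 4 in cluster 21 (3.27%). Without the filter on low counts, 9 genes were called in DCs (3.79%), 3 in ECs (0.437%), 2 in inflammatory myeloid cells (0.39%), 10 in M-MDSCs (1.65%), 2 in monocytes (0.933%) and 7 in NK/T cells (2.21%), and 1 and 2 in the interactions with ECs (0.702%) and NK/T cells (1.45%). DESeq2 called 8 in DCs (3.43%), 14 in ECs (3.02%) and 2 in M-MDSCs (0.826%). Scaling by total UMIs gave 16 in tumor cells (17.6%), 5 in DCs (1.95%) and 1 in NK/T cells (0.893%), and RLE scaling 0 in the interaction with NK/T cells. Adding Eno1 and Eno1b together, an alternative chosen after seeing the data, left 0 in M-MDSCs, 0 in monocytes and 1 in NK/T cells, since the Eno1b call is removed by construction. Thinning left 12 in tumor cells, where 446 genes in all (3.94%) were called. Leaving out each mouse gave 15 to 22 genes in tumor cells (6.14% to 29.9% of all genes), 1 to 5 in DCs (0.668% to 3.66%), 0 to 2 in ECs (0.0208% to 0.319%), 0 to 1 in M-MDSCs (0.256% to 0.926%), 0 to 1 in monocytes (0.0226% to 0.546%) and 0 to 2 in NK/T cells (0.317% to 1.19%). Over clusters 1, 3, 4, 5, 6, 7, 9, 14, 17 and 21 the ranges were 10 to 16 (4.91% to 18.9%), 1 to 13 (0.0969% to 9.6%), 11 to 17 (4.45% to 18.4%), 0 to 10 (0% to 14.5%), 0 to 19 (0% to 12.3%), 1 to 15 (0.496% to 12.1%), 2 to 11 (3.38% to 22.7%), 3 to 19 (1.66% to 12.2%), 0 to 2 (0.301% to 3.6%) and 1 to 3 (0.277% to 3.37%). For the interactions they were 0 to 1 with ECs (0% to 1.31%), 0 to 1 with monocytes (0% to 0.725%) and 0 to 3 with NK/T cells (0.277% to 2.83%). In DCs, M-MDSCs and monocytes the count was lower without any mouse except control 2, and leaving out control 2 gave the highest of these counts in tumor cells and in every cluster except 17.

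Changes of sign in tumor cells were limited to genes not called changed. With upper-quartile scaling Slc2a3 was 0.0049, Hif1a 0.15, Car9 0.034 and Adm 0.025, with total UMIs Hif1a 0.13 and Car9 0.012, and with thinning Hif1a 0.072 and Epas1 0.28. With equal numbers of cells Hif1a was 0.0031 and Adm 0.081, without cluster 6 Hif1a was 0.0046, and with equal weight per cluster Hif1a was 0.056 and Adm 0.047. The summed enolases had -0.069. Leaving out a mouse turned Hk2 (-0.016 without stress 3, up to 0.18), Hif1a (0.019 without control 2, down to -0.047), Car9 (0.011 without stress 2, down to -0.28) and Adm (0.86 without control 2 and 0.23 without stress 1, down to -0.55). The causes were not tested.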
